A study of Mus musculus with 13 samples.

Results

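The transcriptome of mouse blastocysts cultured in a medium without protein and carbohydrate components was set against that of blastocysts in the diapause that follows removal of the mother's ovaries. The comparison used 4 of the series' 13 libraries, all of embryonic day 5.5, and was made across all 21808 genes that passed a low-count filter, of 31528 listed. Depleted KSOM stands for wild-type blastocysts cultured in KSOM, a simple salt-based medium for preimplantation embryos, here without those components (n = 2). OVX stands for wild-type blastocysts from ovariectomised mothers (n = 2). All 13 libraries are on a B6D2F1 background, a mix of C57BL/6 and DBA2J. Wild-type normal-diet blastocysts of day 4.5 (E4.5, n = 2) are given beside both. Since no labelled group was cultured in complete KSOM, the loss of nutrients cannot be told apart from culture itself. The labels give neither the number of embryos in a library nor separate mothers or cultures. The p-values therefore measure the spread between libraries of a group, which may be technical. That spread was estimated from all 13 libraries, not from the 4 compared alone.

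Embryonic diapause is a reversible pause of the blastocyst before it implants. After ovariectomy the uterus lacks the oestrogen signal for implantation, and the blastocyst stays dormant in uterine fluid, which still supplies some nutrients. In culture, a similar pause can be brought about by blocking mTORC1, the kinase complex that couples amino acids and energy to growth. A dormant blastocyst still has an outer trophectoderm, an epiblast and a primitive endoderm, and its mitochondrial respiratory chain is built from proteins encoded on the mitochondrial chromosome and many more encoded in the nucleus.

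The libraries held 45577434 and 70703883 counts in OVX and 72125687 and 68518589 in depleted KSOM. OVX replicate 1 stood apart. Over 9209 genes of at least 5 mean CPM (counts scaled to library size), its log2 levels correlated with those of OVX replicate 2 at r = 0.82, while OVX replicate 2 correlated with the depleted KSOM libraries at r = 0.825 and 0.848. The depleted KSOM libraries correlated at r = 0.922 with each other. Genes of skeletal muscle that are under 5 CPM in both E4.5 libraries (15 genes) summed to 1044 and 40.97 CPM in OVX, and to 30.04 and 21.6 CPM in depleted KSOM, where 10 of the 15, among them Acta1 and Tnnt3, had no count in either library. Neutrophil genes (17) summed to 669 and 144 CPM in OVX and to 9.62 and 7.17 CPM in depleted KSOM, and macrophage genes (13) to 499 and 7.76 against 4.81 and 4.31 CPM. Among these 4 libraries, erythroid genes (8) were highest in depleted KSOM replicate 1, at 108 CPM against 8.13 CPM in replicate 2. Sex-linked RNA also moved with the groups. Y-linked RNA summed to 33.1 and 8.05 CPM in OVX and to 142 and 133 CPM in depleted KSOM, and Xist, the RNA made from an inactive X chromosome, was at 89.2 and 203 CPM in OVX and at 3.43 and 1.64 CPM in depleted KSOM. The part of these differences in the results was not tested, and results are given with and without OVX replicate 1.

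**Figure D1:**
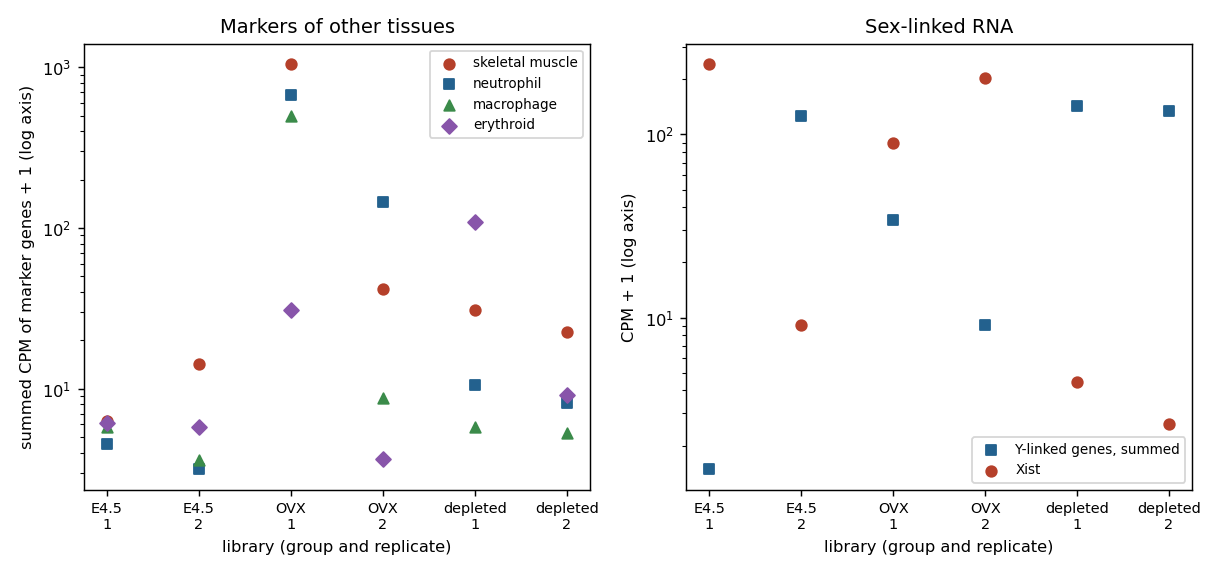
Summed CPM of marker genes of other tissues (left) and of Y-linked genes and Xist (right), plus 1, on log axes, for the E4.5, OVX and depleted KSOM libraries, with 1 point per library. The sums of muscle, neutrophil and macrophage genes were highest in OVX replicate 1, and the depleted KSOM libraries had the highest Y-linked sums and the lowest Xist levels.

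In depleted KSOM, 148 genes differed from OVX at an adjusted p under 0.05 (0.679% of those tested). Of these, 63 were higher (0.289%) and 85 lower (0.39%). Genes of energy metabolism and stress sensing, such as Eif2ak3, Gk, Aldh2, Acsl3 and 8 genes of the mitochondrial chromosome, were among the higher ones. Among the lower ones were glutathione transferases of the alpha class, the lactate dehydrogenase gene Ldha, the phospholipase Pla2g10 and the nuclear RNA Malat1. Of the 29 trophectoderm genes tested, Krt19 and Plet1 were also called lower, while 12 others had a positive fold change that was not called. The median change of the called genes was 4.65-fold upward and 15.6-fold downward, the latter with the 22 lower genes that had no count in depleted KSOM set to a floor of 3 counts per library. No called gene lacked counts in both OVX libraries. For all 148 called genes the OVX and depleted KSOM libraries did not overlap, so lack of overlap adds nothing to a call. Across all genes tested this held for 19.8% upward and 22.2% downward.

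The calls were sensitive to single libraries. Without OVX replicate 1 there were 97 calls, 69 of them shared with the full comparison. Leaving out OVX replicate 2 gave 934 calls, and leaving out either depleted KSOM library gave 41 or 43. Of the called genes, 9 higher and 12 lower remained called in each of these 4 fits. Of the genes described below, mt-Nd4l, mt-Cytb, Gm10222, Gk, Aldh2, Alpl, Pan3, Gas2l3, Gsta1, Gm3776, Pla2g10, Tmem37, Smc1b, Gtsf1, Tsx and Pglyrp1 were called in all 4 fits. Called in 3 of the 4 were Eif2ak3, mt-Nd4, mt-Rnr1, Ldha, Dmkn and Rpl10l. Those called in 2 were mt-Nd5, mt-Co2, Crym, Obp2a, Tnfrsf9, Malat1, Krt19, Gjb5, M1ap, Saa3 and Rpl39l. Acsl3, Cpt2, Oxct1, Rragc, Optn, Perp, Rn7s1, Vps26a, Pfkp, Gsta2, Ctsh, Plet1 and Cyba were called in 1, and Abat and Gpd2 in none. No gene was called when only the 4 libraries were fitted with edgeR (2795 had an unadjusted p under 0.05), and DESeq2 called 2008 in the fit of all libraries. In edgeR's fit of all libraries, 5.65% of genes had an unadjusted p under 0.05 in the upward and 10.3% in the downward direction (15.9% in all). DESeq2 called 2.49% higher and 6.74% lower. Fold changes were positive for 43.4% of all genes tested (9461 positive and 11080 negative). Counts for gene lists below are to be read against these shares. The share of calls that were higher, 42.6%, became 52.7% when library totals replaced TMM scaling and 53.5% with an offset for transcript length. Longer genes had on the whole higher fold changes (Spearman 0.196 across 21194 genes, which are not independent). The genes called higher had a median transcript length of 4165 nucleotides and those called lower of 1958.

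**Figure D2:**
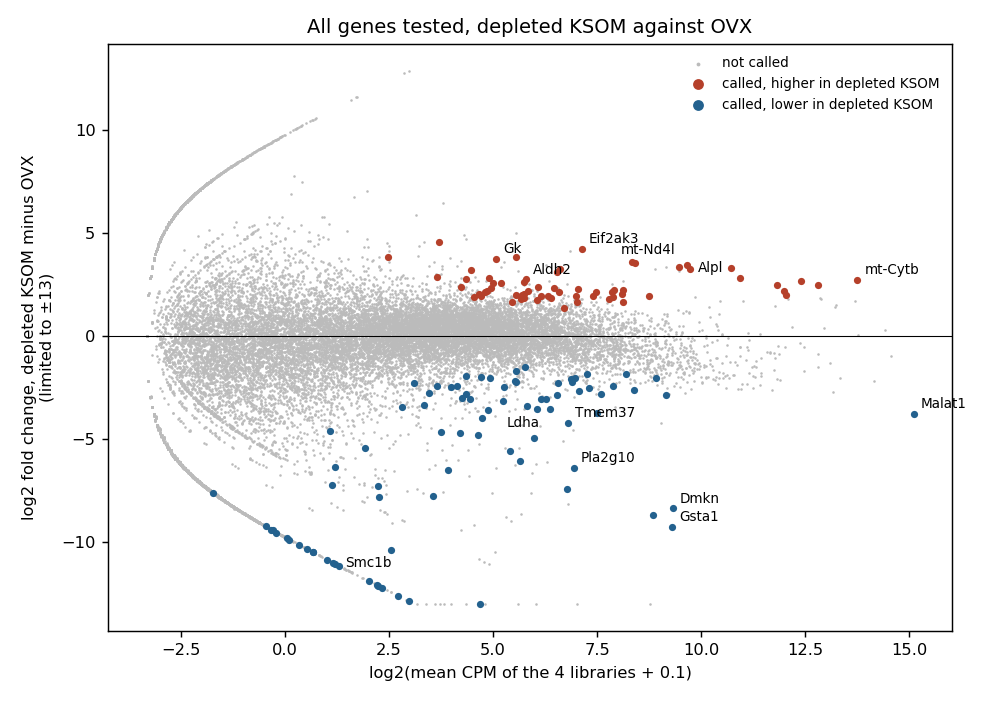
Log2 fold change between depleted KSOM and OVX (vertical axis, limited to ±13) against the log2 of the mean CPM of the 4 libraries plus 0.1 (horizontal axis), with 1 point per gene tested and the 63 genes called higher and 85 called lower in colour. Called genes lie on both sides, and the curved edge at the lower left holds genes without a count in depleted KSOM.

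The lower group was led by glutathione S-transferases, enzymes that join glutathione to reactive compounds. Gsta1 (chr9:78230656-78242684, GRCm38) was at 1703 and 790.5 CPM in OVX and at 0.234 and 3.89 CPM in depleted KSOM, against 2.72 and 10.5 CPM in E4.5. Both OVX libraries lay above both depleted KSOM libraries (log2 fold change -9.24 ± 1.32, adjusted p = 0.0121; without OVX replicate 1, 0.00869). Gsta2 was at 133 and 70.6 CPM in OVX and 13.5 and 6.06 CPM in depleted KSOM (log2 fold change -3.38 ± 0.64, adjusted p = 0.0347), with no overlap, but was not called without OVX replicate 1 (adjusted p = 0.105). The gene model Gm3776, beside Gsta1, was at 1291 and 552 CPM in OVX against 0.296 and 4.13 CPM (adjusted p = 0.0159) and is close enough in sequence that reads may be split between it and Gsta1. Of the 37 tested genes of the list for antioxidant and glutathione metabolism, 2 were lower, these same Gsta1 and Gsta2, and none was higher. The median of the list was -0.29 on the log2 scale, beside -0.03 over all genes tested, and turned positive with library totals (0.031) and with limma on log2(FPKM + 1) (0.049) and log2(FPKM + 0.1) (0.085). In the OVX embryos labelled as Nprl2 and Tsc2 knockout (n = 2), Gsta1 stood at 497 and 1538 CPM, and in the starvation group at 149 and 98 CPM.

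The 250 bases before RefSeq's start of these 3 genes are shown because the genes are neighbours on chromosome 9 and were lower together. As reads of Gsta1 and Gm3776 may be split, the 3 are not independent observations. The gene model Gm10639 lies between Gm3776 and Gsta2 and was also called lower by edgeR (adjusted p = 0.0111). It was at 52.1 and 50 CPM in OVX and had no count in depleted KSOM. The sequences are RefSeq's (GRCm38.p6), written 5′ to 3′ on the gene's strand, for Gsta1 at chr9:78230419-78230668 (+ strand), Gm3776 at chr9:78256879-78257128 (+ strand) and Gsta2 at chr9:78347146-78347395 (- strand). RefSeq's start lies inside the span that the deposited table gives the gene, by 13 bases for Gsta1 and 8643 for Gsta2. Capitals mark the longest run of bases that all 3 share, 29 in length.
Gsta1: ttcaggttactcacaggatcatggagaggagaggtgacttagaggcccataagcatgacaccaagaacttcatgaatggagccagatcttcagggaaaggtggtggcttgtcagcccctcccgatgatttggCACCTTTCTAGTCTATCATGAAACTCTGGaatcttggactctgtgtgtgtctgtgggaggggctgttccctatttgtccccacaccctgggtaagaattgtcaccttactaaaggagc
Gm3776: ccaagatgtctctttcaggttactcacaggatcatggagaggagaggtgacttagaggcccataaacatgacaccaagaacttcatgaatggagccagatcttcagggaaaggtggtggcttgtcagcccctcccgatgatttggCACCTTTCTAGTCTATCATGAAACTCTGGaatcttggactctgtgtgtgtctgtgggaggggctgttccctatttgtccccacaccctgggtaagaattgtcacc
Gsta2: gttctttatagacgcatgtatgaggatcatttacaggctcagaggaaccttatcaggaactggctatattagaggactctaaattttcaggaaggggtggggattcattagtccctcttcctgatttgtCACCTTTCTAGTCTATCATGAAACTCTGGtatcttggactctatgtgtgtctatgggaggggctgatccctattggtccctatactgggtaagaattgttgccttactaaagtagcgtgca
Laid side by side without gaps at the best-matching shift, Gsta1 and Gm3776 were identical at 236 of 237 bases (99.6%). Gsta1 and Gsta2 were identical at 136 of 247 (55.1%), a value that gaps could raise. The shared run ended 90, 77 and 93 bases before the start of Gsta1, Gm3776 and Gsta2. None of the 3 windows held TGACNNNGC, the core of the antioxidant response element, on either strand. Bases further upstream were not searched, so an element there would have been missed. The motif was present in 11.8% of the same windows of 13340 genes with a matched promoter. Among called genes it was present in 5 of 34 higher and in 10 of 68 lower.

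The genes of sugar use that passed the test were lower. Ldha (chr7:46841475-46855627), which interconverts pyruvate and lactate, was at 120.1 and 183 CPM in OVX and at 12 and 14.2 CPM in depleted KSOM, against 52.3 and 25.2 CPM in E4.5. It was 11.6-fold lower than in OVX and below E4.5 in both libraries (log2 fold change -3.53 ± 0.46, adjusted p = 0.0104; without OVX replicate 1, 0.00483). Pfkp, the platelet form of the phosphofructokinase of glycolysis, fell from 16.6 and 11.7 to 2.61 and 3.14 CPM (log2 fold change -2.29 ± 0.43, adjusted p = 0.0347; without OVX replicate 1, 0.153). These were the only genes called among 26 of glycolysis, lactate and glucose uptake, a list with a median of -0.42. The glucose transporter gene Slc2a1 was at 5.52 and 18 CPM in OVX and 33.4 and 39.3 CPM in depleted KSOM without passing the test (adjusted p = 0.135). Slc2a3, the other glucose transporter named in advance, was at 332 and 475 CPM in OVX against 635 and 561 CPM (adjusted p = 0.414). Hk2, the hexokinase that starts glucose use, overlapped between the groups, at 949 and 301 CPM in OVX against 662 and 778 CPM.

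The window before RefSeq's start of Ldha, which lies 4329 bases inside the gene's span in the deposited table, is shown for its pair of CACGTG motifs, the E-box, which MYC and related factors bind, in capitals (chr7:46845554-46845803, + strand, RefSeq, GRCm38.p6).
Ldha: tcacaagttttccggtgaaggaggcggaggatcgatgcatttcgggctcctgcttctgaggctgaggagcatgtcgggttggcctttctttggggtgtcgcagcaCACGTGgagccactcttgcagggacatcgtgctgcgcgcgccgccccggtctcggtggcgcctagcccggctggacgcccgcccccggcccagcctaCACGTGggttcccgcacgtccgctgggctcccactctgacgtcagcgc
CACGTG, which reads the same on both strands, was present in 8.01% of all 13340 windows, in 3 of 34 genes called higher (Gk, Rragc and Vps26a) and in 9 of 68 called lower. The transcripts of Myc itself were at 3.14 and 33.7 CPM in OVX and 11.7 and 20.3 CPM in depleted KSOM, and those of Mycn at 16.1 and 65.2 CPM in OVX against 27 and 33.3 CPM. Both overlapped between the groups, and neither was called (adjusted p = 0.985 and 0.785).

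Some genes of fat and ketone use were higher. Acsl3, which activates long-chain fatty acids with coenzyme A, was at 5.82 and 8.81 CPM in OVX and 50.4 and 53.4 CPM in depleted KSOM (log2 fold change 2.83 ± 0.43, adjusted p = 0.0164). Cpt2, which frees fatty acids from carnitine inside mitochondria, was at 9.41 and 12.1 CPM in OVX against 39.4 and 42.6 CPM (log2 fold change 1.93 ± 0.38, adjusted p = 0.0416). Oxct1, which activates ketone bodies for use as fuel, was at 38.6 and 34 CPM in OVX against 119 and 144 CPM (log2 fold change 1.86 ± 0.34, adjusted p = 0.034). OVX and depleted KSOM were apart for all 3, the only ones called among 40 genes of fatty acid oxidation and ketone use. The list had a median of 0.69, and 28 of its 40 genes were positive. Without OVX replicate 1 its median was 0.72, but none of its genes was called. Acsl3, Cpt2 and Oxct1 then had adjusted p of 0.0873, 0.27 and 0.102. Fabp5, a fatty acid binding protein also on this list, ran the other way without being called, at 13.9 and 14.6 CPM in OVX and 0.85 and 3.13 CPM in depleted KSOM against 587 and 530.5 CPM in E4.5 (adjusted p = 0.173).

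Gk (chrX:85701937-85776819), the kinase that brings glycerol into metabolism, was at 4.28 and 5.06 CPM in OVX, 52.6 and 73 CPM in depleted KSOM and 3.65 and 4.26 CPM in E4.5. OVX and E4.5 were alike in level and depleted KSOM 13.4-fold above OVX (log2 fold change 3.75 ± 0.40, adjusted p = 0.00304; without OVX replicate 1, 0.0137). Gpd2, the mitochondrial glycerol-3-phosphate dehydrogenase, was lower, at 34.6 and 48.9 CPM in OVX against 12.3 and 9.04 CPM (log2 fold change -1.97 ± 0.40, adjusted p = 0.0456). Gk is X-linked, and the 786 X-linked genes tested had a median of -0.37 against -0.02 for 20969 autosomal genes. Of the X-linked genes 8 were called, 2 of them higher. That is 1.02%, beside 0.63% of autosomal genes. Aldh2, the mitochondrial aldehyde dehydrogenase, was at 15 and 13.3 CPM in OVX against 88.5 and 103 CPM (log2 fold change 2.76 ± 0.37, adjusted p = 0.0106; without OVX replicate 1, 0.0277). Abat, which degrades the amino acid GABA, was at 21.9 and 17.1 CPM in OVX against 136 and 194 CPM (log2 fold change 3.08 ± 0.60, adjusted p = 0.039) but was called in none of the 4 fits that leave out a library. The citric acid cycle and pyruvate entry list had 28 of 36 genes positive and a median of 0.55, with no gene called by edgeR. In that list 10 genes had an unadjusted p under 0.05 in the upward and 1 in the downward direction, beside 5.65% and 10.3% of all genes, and DESeq2 called 3 and 1.

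**Figure D3:**
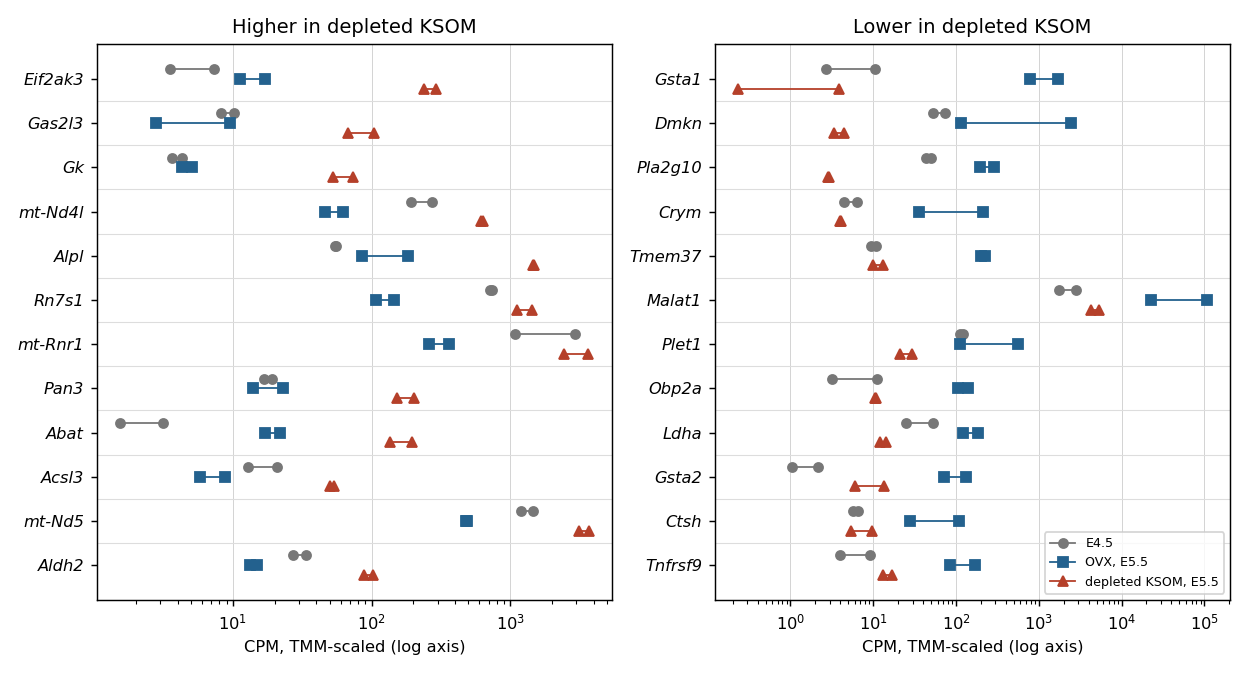
CPM on a log axis of the 12 genes with the largest change in each direction, chosen by rule, with 1 symbol per library for E4.5 (circles), OVX (squares) and depleted KSOM (triangles) and a line joining the replicates. That the OVX and depleted KSOM libraries do not overlap was a condition of the rule for these 24 genes. Dmkn and Crym have the widest gaps between OVX replicates among those lower in depleted KSOM.

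RNA of the mitochondrial chromosome took up 2.29% and 2.57% of counts in OVX and 12.2% and 13.2% in depleted KSOM. That is 12.7% ± 0.67 (SD, n = 2) in depleted KSOM against 2.43% ± 0.203 (SD, n = 2) in OVX and 5.87% ± 1.15 (SD, n = 2) in E4.5. No library of the other 5 groups exceeded 7.4%. All 13 mitochondrially encoded mRNAs were positive, from 1.40 to 3.52 with a median of 1.91, and in each the groups did not overlap. Across all genes the groups did not overlap in the upward direction for 19.8%. edgeR called 6 of the 13 and DESeq2 12. Without OVX replicate 1, 7 were called and the median was 2.27, and without OVX replicate 2, 8 were called. There were 4 calls without depleted KSOM replicate 1 and 2 without depleted KSOM replicate 2. Of all genes tested, 0.129%, 0.878%, 0.0609% and 0.0644% were called higher in these 4 fits.

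The mitochondrial mRNAs encode subunits of respiratory complexes. Among those of complex I, mt-Nd4l was at 62.6 and 45.9 CPM in OVX and 632 and 612 CPM in depleted KSOM (log2 fold change 3.52 ± 0.37, adjusted p = 0.00304). mt-Nd5 was at 484 and 491 CPM in OVX against 3142 and 3696 CPM (log2 fold change 2.81 ± 0.46, adjusted p = 0.0213), and mt-Nd4 at 989.8 and 1219 CPM in OVX against 5784 and 6398 CPM (log2 fold change 2.46 ± 0.40, adjusted p = 0.0209). mt-Cytb, of complex III, was at 4281 and 2963 CPM in OVX against 22499.6 and 25161 CPM (log2 fold change 2.72 ± 0.42, adjusted p = 0.017). mt-Co2, of complex IV, was at 1646 and 1695 CPM in OVX against 6450.2 and 6971 CPM (log2 fold change 2.01 ± 0.33, adjusted p = 0.0213). The smallest difference was that of mt-Atp6, of ATP synthase, at 7404 and 2999 CPM in OVX against 13068 and 14367 CPM (log2 fold change 1.40 ± 0.54, adjusted p = 0.227). The mitochondrial ribosomal RNA mt-Rnr1 was at 362 and 259 CPM in OVX against 2452 and 3626 CPM (log2 fold change 3.29 ± 0.54, adjusted p = 0.0213). Nuclear copies of mitochondrial sequence on chromosome 1, such as Gm10222 (log2 fold change 3.57 ± 0.48, adjusted p = 0.0107), were called with them. The call of mt-Nd5 was lost without OVX replicate 1 (adjusted p = 0.0543). Reads of the copies and the mitochondrial genes may be shared.

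Nuclear genes of the same complexes were mostly on the negative side. Of 36 nuclear complex I genes, 35 were negative, with a median of -1.37 (-0.44 without OVX replicate 1). Of 36 nuclear genes of complexes III to V, 32 were negative, with a median of -1.64 (-0.45 without that library). edgeR called none in either list, though 28 and 24 of them had an unadjusted p under 0.05 in the downward direction against 10.3% of all genes. DESeq2 called 22 lower in each, against 6.74% of all genes, and 1 complex I gene higher. The lists had 24 genes each called lower without OVX replicate 2 (2.9% of all genes) and none without any other library. Ndufb11, of complex I, was at 1552 and 661 CPM in OVX and 252 and 313 CPM in depleted KSOM (adjusted p = 0.0811). Ndufs1, also of complex I, was the sole member of its list above 0, at 49.3 and 60.8 CPM in OVX against 127 and 107 CPM (adjusted p = 0.104).

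Cytosolic ribosomal protein genes were all on the negative side, 79 of 79, with a median of -1.34, -0.75 without OVX replicate 1 and -1.04 with the offset for transcript length. Rpl26, for one, was at 2481 and 944 CPM in OVX and 349 and 366 CPM in depleted KSOM (adjusted p = 0.0564). None was called by edgeR, 67 had an unadjusted p under 0.05 in the downward direction, beside 10.3% of all genes, and DESeq2 called 55. Without OVX replicate 2, 48 were called (2.9% of all genes were lower), and without any other library none. Of 78 mitochondrial ribosomal protein genes, 61 were negative, with a median of -0.84 (-0.42 without OVX replicate 1). None of these was called by edgeR, though 42 had an unadjusted p under 0.05 in the downward direction (10.3% of all genes) and 26 were called lower by DESeq2. OVX replicate 1, which had the highest muscle sum of the 4 libraries compared, was the higher of the OVX libraries for Ndufb11 and Rpl26.

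**Figure D4:**
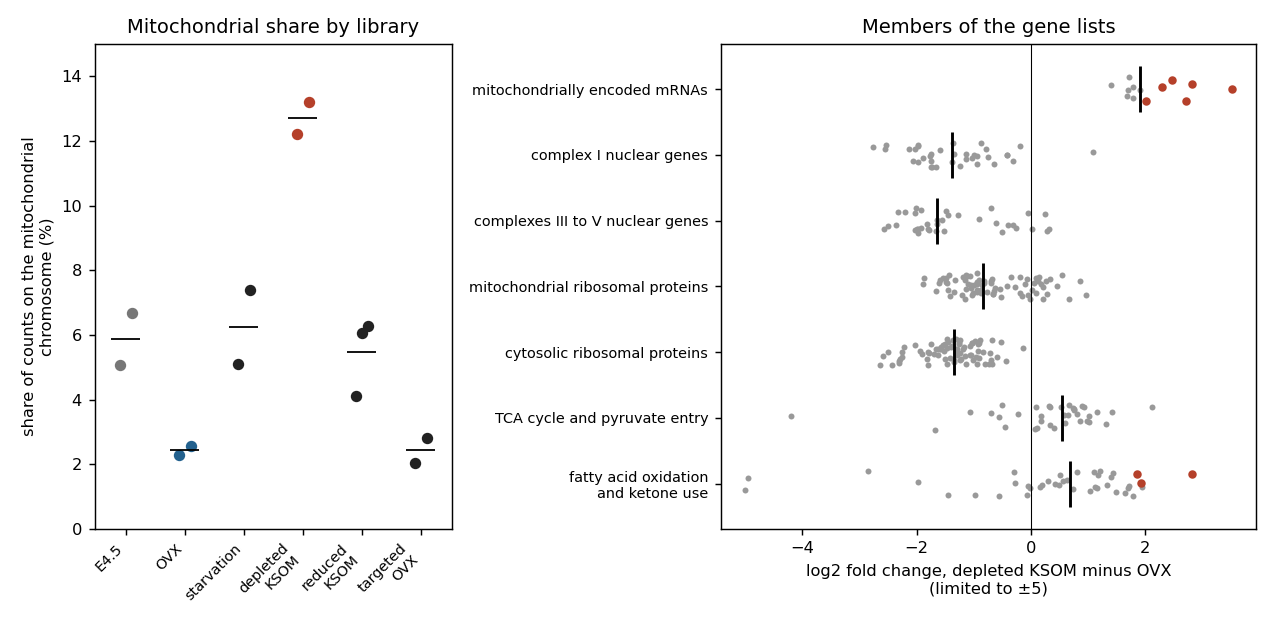
Left, share of counts on the mitochondrial chromosome in percent for each of the 13 libraries by group, with lines at group means. Right, log2 fold change of each member of 7 gene lists (limited to ±5), called genes in red and a bar at each list's median, which runs from 1.91 for the mitochondrially encoded mRNAs to -1.64 for the nuclear genes of complexes III to V.

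Eif2ak3 had the largest rise among the genes named by size. It lies at chr6:70844515-70905245 and encodes PERK, the kinase that senses unfolded protein in the endoplasmic reticulum and slows translation through eIF2. Its transcripts were at 11.3 and 16.9 CPM in OVX, 292 and 240.0 CPM in depleted KSOM and 3.52 and 7.36 CPM in E4.5, a 18.8-fold rise over OVX (log2 fold change 4.23 ± 0.68, adjusted p = 0.0209). The adjusted p was 0.0793 without OVX replicate 1. The list of the unfolded protein response had no other called gene among its 24. Atf4, the transcription factor downstream of PERK and of the amino acid sensor GCN2, overlapped between the groups, at 46.5 and 70.6 CPM in OVX against 60.6 and 41.5 CPM (adjusted p = 0.939). Of 41 genes of its amino acid response, edgeR called none. In that list 5 of 41 had an unadjusted p under 0.05 upward and 4 downward, beside 5.65% and 10.3% of all genes, DESeq2 called 2 and 1, and the median was 0.34 (0.22 with genes without counts in a group at their floor). Asns, which makes asparagine, was at 307 and 294 CPM in OVX against 473 and 300.2 CPM, Trib3 at 6.76 and 6.32 CPM in OVX against 2.97 and 19.1 CPM, and Chac1 at 2.52 and 0 CPM in OVX against 0.382 and 2.75 CPM, all overlapping. Ddit3, which encodes CHOP, was at 61.1 and 71 CPM in OVX against 105 and 188 CPM without overlap (adjusted p = 0.222). The cystine transporter gene Slc7a11 was at 7.09 and 0.272 CPM in OVX against 0.173 and 0.162 CPM (adjusted p = 0.276).

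Rragc, which encodes 1 of the Rag GTPases that bring mTORC1 to the lysosome, was at 30.8 and 40.6 CPM in OVX and 202 and 112 CPM in depleted KSOM (log2 fold change 2.13 ± 0.43, adjusted p = 0.0455). It was the only gene called among 40 of mTORC1 and its nutrient sensors. Optn, an autophagy receptor, rose from 22.4 and 19.7 to 100.1 and 72.5 CPM (log2 fold change 2.04 ± 0.35, adjusted p = 0.0255), the only call among 38 autophagy genes. In the lysosome list, the protease gene Ctsh was lower, at 27.5 and 108 CPM in OVX against 5.41 and 9.76 CPM (log2 fold change -3.16 ± 0.62, adjusted p = 0.0398). The list's median was 0.57, with 46 of 63 genes positive, and 0.54 without OVX replicate 1. In that fit Rragc and Optn were not called (adjusted p = 0.232 and 0.0871), and Ctsh was (0.00807). Foxo3, a transcription factor of the fasting response, was at 12 and 24.5 CPM in OVX against 49.4 and 75.3 CPM (adjusted p = 0.0904), Foxo1 at 5.39 and 9.38 CPM in OVX against 11.9 and 12.2 CPM and Sesn2 at 1.63 and 7.01 CPM in OVX against 11.7 and 4.22 CPM. Txnip, a brake on glucose uptake, was at 6.24 and 1.41 CPM in OVX against 0.431 and 0.54 CPM, and Ddit4 and Pdk4 had a library at under 1 CPM in each group. None of these 6 was called.

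Other genes with a large rise were Alpl, Gas2l3, Pan3 and Rn7s1. Alpl (chr4:137741733-137796384), the tissue-nonspecific alkaline phosphatase, was at 85.7 and 183 CPM in OVX, 1473 and 1479.8 CPM in depleted KSOM and 54.1 and 55.4 CPM in E4.5 (log2 fold change 3.46 ± 0.48, adjusted p = 0.0111; without OVX replicate 1, 0.0266). Pan3, a subunit of the nuclease that shortens poly(A) tails, was at 22.8 and 14.1 CPM in OVX against 152 and 203 CPM (log2 fold change 3.27 ± 0.46, adjusted p = 0.0111; without OVX replicate 1, 0.0191). Gas2l3, a protein that links actin and microtubules, was at 9.61 and 2.8 CPM in OVX against 105 and 68.1 CPM (log2 fold change 3.81 ± 0.54, adjusted p = 0.0118; without OVX replicate 1, 0.00326). Rn7s1, a copy of the 7SL RNA of the signal recognition particle, was at 108 and 145 CPM in OVX against 1125 and 1448 CPM (log2 fold change 3.35 ± 0.65, adjusted p = 0.0377). It shares sequence with other copies, so its count is uncertain. Rn7s1 and Perp were not called without OVX replicate 1 (adjusted p = 0.153 and 0.187). Perp, a p53 target of cell junctions, was at 26.7 and 33.9 CPM in OVX against 90.7 and 115 CPM (log2 fold change 1.76 ± 0.34, adjusted p = 0.0368), with 126 and 89.9 CPM in E4.5.

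Several genes lower in depleted KSOM encode secreted or membrane proteins. Pla2g10, a secreted phospholipase, was at 194 and 289 CPM in OVX and 2.9 and 2.87 CPM in depleted KSOM (log2 fold change -6.38 ± 0.78, adjusted p = 0.009). Tmem37, a small membrane protein, was at 222 and 201 CPM in OVX against 9.87 and 13.2 CPM (log2 fold change -4.20 ± 0.51, adjusted p = 0.009). Obp2a, an odorant-binding lipocalin, was at 140.5 and 106 CPM in OVX against 10.5 and 10.8 CPM (log2 fold change -3.54 ± 0.56, adjusted p = 0.0193). OVX was also above E4.5 for each, which was at 43.5 and 50.2 CPM for Pla2g10, 10.8 and 9.37 for Tmem37 and 3.15 and 11 for Obp2a. Dmkn, a secreted epithelial protein, was at 2420.4 and 116 CPM in OVX against 3.35 and 4.45 CPM (log2 fold change -8.34 ± 1.25, adjusted p = 0.0159), and Crym, a thyroid hormone binding protein, at 35.3 and 211 CPM in OVX against 4.03 and 4.01 CPM (log2 fold change -4.94 ± 0.78, adjusted p = 0.0192). The OVX libraries differed widely from each other for both. Tnfrsf9, a receptor of the TNF family, was at 84.4 and 168 CPM in OVX against 13.3 and 16.7 CPM (log2 fold change -3.08 ± 0.61, adjusted p = 0.0412). Without OVX replicate 1 these 6 were still called, with adjusted p from 0.00247 for Crym to 0.0351 for Obp2a. Crym, Obp2a and Tnfrsf9 were not called without either depleted KSOM library, nor Dmkn without replicate 1 of it.

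Malat1, a long RNA kept in the nucleus, took up 7.23% and 2.63% of counts in OVX and 0.604% and 0.462% in depleted KSOM. On the scaled levels this was 107748 and 22981 against 5370.4 and 4273 CPM, with 1736 and 2853 CPM in E4.5 (log2 fold change -3.76 ± 0.71, adjusted p = 0.0347; without OVX replicate 1, 0.045). It was not called without depleted KSOM replicate 1 or 2 (0.124 and 0.153). OVX replicate 1 had the highest level. It was the only gene called among 16 host genes of small nucleolar RNAs and nuclear noncoding RNAs.

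Markers of the 3 blastocyst lineages were present in both groups. In whole embryos, fewer cells of a type and less RNA per cell cannot be told apart. In the trophectoderm list, Krt19, a keratin of the outer epithelium, fell from 41.9 and 123 to 2.32 and 1.16 CPM (log2 fold change -5.57 ± 1.04, adjusted p = 0.0347), and Plet1, a surface protein of trophoblast, from 111 and 556 to 21.3 and 29.6 CPM (log2 fold change -3.72 ± 0.76, adjusted p = 0.0496). Both remained called without OVX replicate 1 (adjusted p = 0.0184 and 0.00822). Krt19 was lost without depleted KSOM replicate 1 or 2 (0.098 and 0.141), and Plet1 without OVX replicate 2 (0.0708) or either depleted KSOM library (0.207 and 0.141). The other 27 genes did not pass. Cdx2, a transcription factor of the trophectoderm, was at 11.1 and 17.8 CPM in OVX and 42 and 45.6 CPM in depleted KSOM (adjusted p = 0.0901). Gata3 was at 217 and 329 CPM in OVX against 618 and 484 CPM (adjusted p = 0.18). The list's median was -0.36, and 0.06 without OVX replicate 2. Gjb5, a gap junction protein of the trophoblast on the adhesion list, fell from 143 and 236 to 37 and 50.8 CPM (log2 fold change -2.11 ± 0.35, adjusted p = 0.0213; without OVX replicate 1, 0.0116; without depleted KSOM replicate 1 or 2, 0.178 and 0.0833).

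None of 30 epiblast and 25 primitive endoderm genes was called by edgeR. Of these, 7 and 6 had an unadjusted p under 0.05, beside 15.9% of all genes, and DESeq2 called 6 and 5, beside 9.23%. Pou5f1 was at 9.48 and 13 CPM in OVX and 25.6 and 14.6 CPM in depleted KSOM, with 111 and 82.5 CPM in E4.5 (adjusted p = 0.327). Nanog was at 5.1 and 19.8 CPM in OVX against 23.2 and 31.5 CPM and Sox2 at 4.15 and 5.76 CPM in OVX against 6.67 and 7.62 CPM. Lifr, the receptor for LIF, was at 9.48 and 14.7 CPM in OVX against 26.1 and 19.3 CPM. For the endoderm factors, Gata6 was at 20.9 and 34.5 CPM in OVX against 37.2 and 48.7 CPM, Pdgfra at 20.2 and 8.38 CPM in OVX against 18.8 and 18 CPM, and Sox17 at 0.654 and 14.7 CPM in OVX against 4.76 and 8.23 CPM. The medians were 0.12 for the epiblast list, 0.00 without OVX replicate 1, and -0.25 for the primitive endoderm list.

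No gene of DNA replication (52) or mitosis (49) was called by edgeR. In the replication list 13 had an unadjusted p under 0.05 downward and 2 upward, beside 10.3% and 5.65% of all genes, DESeq2 called 8 lower and 1 higher, and the median was -0.60. In the mitosis list 2 had an unadjusted p under 0.05, a lower share than the 15.9% of all genes, DESeq2 called none, and the median of -0.32 became 0.42 without OVX replicate 1. Cdkn1a, which encodes the cyclin-dependent kinase inhibitor p21, was at 45 and 183 CPM in OVX and 26.9 and 27.7 CPM in depleted KSOM (adjusted p = 0.156). Gchfr, a regulator of tetrahydrobiopterin synthesis that is rare in E4.5 (3.75 and 5.36 CPM), was at 642 and 396 CPM in OVX against 366 and 487 CPM, overlapping. The sterol synthesis gene Hmgcs1 was at 6.34 and 28 CPM in OVX against 37.3 and 78.9 CPM and was not called (adjusted p = 0.287). Ldha alone was called among 31 reported genes that had been set down in advance.

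**Figure D5:**
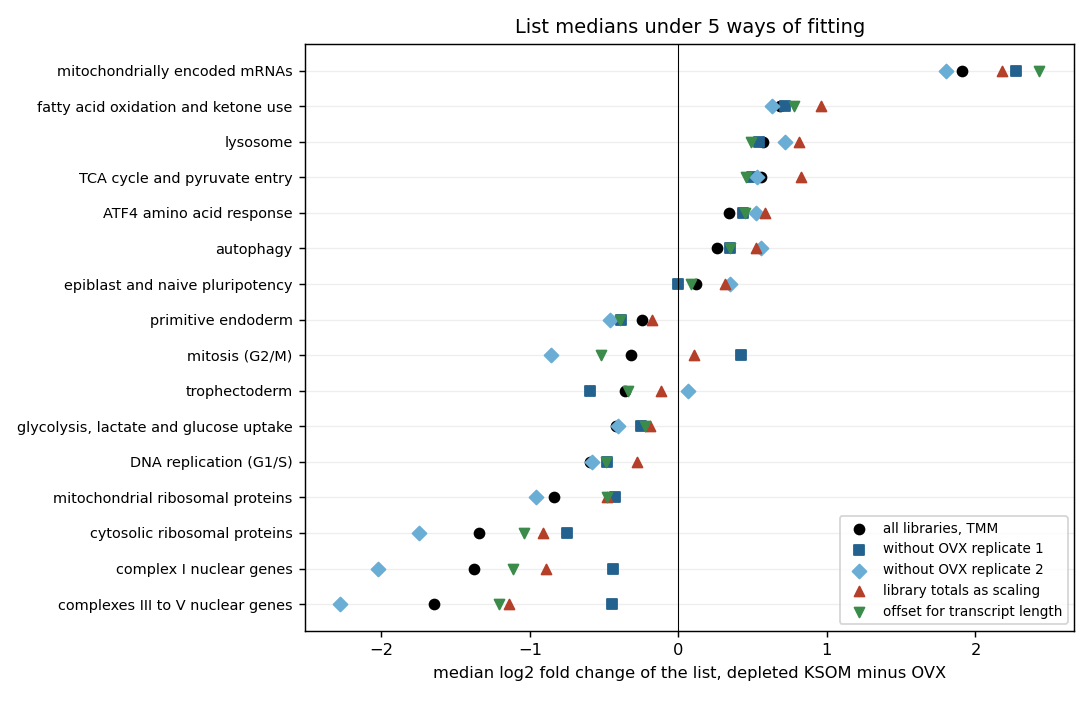
Median log2 fold change of 16 gene lists under 5 ways of fitting, marked by symbol. The mitochondrially encoded mRNAs stay between 1.80 and 2.43, the nuclear respiratory and ribosomal lists stay below 0 but move toward it without OVX replicate 1, and the mitosis, trophectoderm and epiblast lists reach or cross 0.

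E4.5 was nearer to OVX than to depleted KSOM for 41 of the 63 genes called higher (65.1%) and for 59 of the 85 called lower (69.4%). Over all genes tested the share was 51.6%. The called genes were chosen on the same OVX and depleted KSOM values, so these shares are a description and not a test. In the starvation group (wild type, E5.5, n = 2) several of the genes called higher lay above OVX in both libraries. Gk was at 25.2 and 32 CPM there, Aldh2 at 74 and 111, Optn at 78.3 and 104 and Abat at 54.9 and 128 CPM. For mt-Cytb the starvation libraries, at 4807 and 6594 CPM, lay far below depleted KSOM, and for Pan3, at 12.9 and 31.8 CPM, likewise. These levels are given as a description and the differences were not tested.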

How the data were processed

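RNA of blastocysts was made into cDNA with a kit for very low input and the fragmented cDNA amplified by PCR, per the labels' protocols, which mention no molecular identifiers. The deposited table holds, per the file headers, an estimated count and an FPKM value for each of 31528 genes in each of 13 libraries on GRCm38. The authors' expected counts are whole numbers, so rounding changed nothing. cutadapt 1.9, HISAT2 2.0.4 and StringTie 1.3.4d are named in the submitters' processing notes, and the annotation and the counting tool are not given in the sources used here. FPKM were computed by the authors and were used only in alternatives, as log2(FPKM + 1) and log2(FPKM + 0.1).

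Genes were kept with filterByExpr (21808) and scaled by TMM. Counts were tested with edgeR 4.0.16 quasi-likelihood models in a single model of the 13 libraries and 6 group means ( 7 residual degrees of freedom), with the contrast of depleted KSOM minus OVX. Calls are at a Benjamini-Hochberg adjusted p under 0.05 over all genes tested. The ± after a log2 fold change is its standard error, derived from the F statistic. CPM are on the TMM scale, and sums of tissue and sex-linked genes are on library totals. Libraries held 40678386 to 72125687 counts, which without molecular identifiers are not independent molecules. The common biological coefficient of variation was 0.896. The procedure was tested on data simulated from the fitted spread. These held no outlying library, RNA of other tissues or sex difference, so the test does not cover those features.

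The groups, gene lists (52, with 1387 of 1441 genes tested), members and rules were chosen with earlier results of these data known, and the 16 lists followed across settings were picked after their medians were seen. Genes were named by 3 rules. The first took the 12 called genes in each direction with the largest fold change, a mean log2 CPM of at least 4, no overlap of the groups, no predicted model and no place in a list of other tissues. The second took up to 4 called genes per pathway or lineage list by smallest adjusted p, and the third was a set named in advance, of which 31 are reported. Results for 2 genes are not reported here. Gm3776, Gm10639, Gm10222, Gpd2, mt-Atp6, Ndufb11, Ndufs1 and Rpl26 were added after their values were seen. Promoter windows of 250 bases came from RefSeq (GRCm38.p6), matched by symbol for 13340 genes, 102 of them called. Alternatives were median-of-ratios scaling, library totals, DESeq2 1.42.0, limma 3.58.1 on the FPKM, no filter, a minimum mean CPM of 5, only the 4 libraries, a replicate block, counts divided by 4, an offset for transcript length, a term for the libraries above 100 CPM of muscle genes, and leaving out each library. R 4.3.3, Python 3.11.15 and, for plots, matplotlib 3.10.9 were used.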

Additional observations from a re-analysis of the deposited data

How the results depend on the processing

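The number of called genes was most sensitive to the filter, the tool and the libraries fitted. Against 148 calls, DESeq2 gave 2008, limma 295 on log2(FPKM + 1) and 231 on log2(FPKM + 0.1), no low-count filter 1417 and a minimum mean CPM of 5 gave 384. A muscle term left 42. No gene was called by edgeR with only the 4 libraries compared, where 2795 had an unadjusted p under 0.05, or with the replicate number as a block in those 4 libraries, where 1814 did. The numbers pair no samples by the labels. The difference between replicates 1 and 2 in OVX correlated with that in depleted KSOM at -0.021 across 9209 genes. Leaving out 1 library gave 41 to 934 calls, with 97 without OVX replicate 1, 934 without OVX replicate 2, 41 without depleted KSOM replicate 1 and 43 without depleted KSOM replicate 2. Of these, 69, 139, 30 and 33 were shared with the 148. Median-of-ratios scaling (144), library totals (110), counts divided by 4 (206) and the length offset (114) stayed within 1.5 times. DESeq2, the fit without a filter and the length offset shared 148, 148 and 105 calls with it.

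The share of called genes that were higher was 42.6%. It moved above an even split with library totals (52.7%), the length offset (53.5%) and limma (70.2% on log2(FPKM + 1) and 56.7% on log2(FPKM + 0.1)). DESeq2 gave 26.9%, no filter 24.7% and the muscle term 28.6%, and leaving out 1 library gave 23.2% to 37.2%. The cause was not tested.

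Changes of sign among the genes named were confined to 13 that were not called, and none of the values with the other sign was called (lowest adjusted p 0.139). On the log2 scale, fits with limma on log2(FPKM + 1) gave Sox17 0.14, Myc 0.48, Mycn 0.14, Ddit4 0.079, Atf4 0.14 and Gchfr 0.085. Fits with limma on log2(FPKM + 0.1) gave Sox17 0.89, Myc 0.86, Mycn 0.22, Ddit4 0.36, Atf4 0.15 and Gchfr 0.085. The replicate block gave Sox17 0.98, Myc 0.59 and Ddit4 0.27. The length offset gave Myc 0.074, Atf4 0.016 and Gchfr 0.30. Library totals gave Ddit4 0.24, Atf4 0.014 and Gchfr 0.087. The muscle term gave Ddit4 2.33, Pdk4 8.80 and Gchfr 0.11. Without OVX replicate 1 these were 2.32, 8.86 and 0.10, so the muscle term is not a separate check. Leaving out 1 library gave ranges of -0.004 to 0.66 for Asns, -0.50 to 0.14 for Atf4, -1.69 to 9.61 for Chac1, -1.55 to 2.32 for Ddit4, -0.59 to 0.10 for Gchfr, -0.40 to 1.25 for Hk2. It also gave -1.08 to 2.35 for Myc, -1.12 to 0.91 for Mycn, -0.13 to 1.13 for Pdgfra, -8.77 to 8.86 for Pdk4, -0.044 to 2.29 for Sesn2, -1.18 to 3.31 for Sox17 and -1.14 to 1.55 for Trib3. Of the list medians, that of mitosis turned from -0.32 to 0.10 with library totals, 0.047 and 0.025 with limma on log2(FPKM + 1) and log2(FPKM + 0.1), 0.42 with the muscle term and -1.13 to 0.42 when 1 library was left out. The epiblast median went from 0.12 to 0.00 with the muscle term and ranged over 0.00 to 0.35 without 1 library, and the trophectoderm median over -0.60 to 0.063. The other 13 of the 16 lists kept their sign under each alternative. The causes were not tested, and with 2 libraries a group only large differences could pass.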

Other observations

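Of the 22 called genes without a count in depleted KSOM, 4 genes best known from the germ line are described here. These examples were picked after their values were seen. No list of germ-line genes was tested, so their share over all genes is not known. The fold bounds rest on a chosen floor, and the counts are not independent molecules. Smc1b, the meiotic cohesin subunit, was at 4.71 and 4.07 CPM in OVX and had no count in either depleted KSOM library. Set against the floor of 3 counts per library it was at least 113-fold lower, with an adjusted p of 0.00304 by edgeR, and it was called in each of the 4 fits that leave out a library. Gtsf1, which acts with piRNAs on transposons, was at 1.34 and 4.66 CPM and at least 77.5-fold lower (adjusted p = 0.0104). Tsx, a testis-expressed gene of the X chromosome, was at 14.1 and 4.45 CPM and at least 240.0-fold lower (adjusted p = 0.0111), and M1ap, a meiosis gene, was at 1.47 and 3.93 CPM and at least 69.8-fold lower (adjusted p = 0.0179). E4.5 libraries held all 4, at 5.89 and 2.999, 13.7 and 7.04, 26.6 and 12 and 2.99 and 2.81 CPM. Xist, also X-linked, was at 89.2 and 203 CPM in OVX against 3.43 and 1.64 CPM in depleted KSOM. The part of the sex-linked difference in the Tsx values was not tested. Rpl10l and Rpl39l, ribosomal protein paralogs that are abundant in testis, were lower too. Rpl10l was at 38.9 and 37.9 CPM in OVX and 3.38 and 5.92 CPM in depleted KSOM (log2 fold change -3.04 ± 0.42, adjusted p = 0.0109), and Rpl39l at 69.3 and 80.5 CPM in OVX against 18.6 and 14.8 CPM (log2 fold change -2.17 ± 0.37, adjusted p = 0.0246). Reads of both may be shared with their parent genes.

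A further group, also picked after its values were seen, encodes proteins of innate defence. Saa3, an acute-phase protein, was at 37.1 and 58.7 CPM in OVX and 1.18 and 2.23 CPM in depleted KSOM (log2 fold change -4.81 ± 0.76, adjusted p = 0.0192), and Cyba, a subunit of the phagocyte oxidase, at 475 and 318 CPM in OVX against 71.3 and 77.3 CPM (log2 fold change -2.42 ± 0.49, adjusted p = 0.0483). Pglyrp1, which binds bacterial cell walls, was at 14 and 11.9 CPM in OVX with no count in depleted KSOM. Neutrophil genes summed to 669 and 144 CPM in the same OVX libraries, and their part in these values was not tested. Of these genes, S100a8 alone was at 355 and 83 CPM in OVX on the TMM scale. The median log2 fold change of the neutrophil list was -5.115, and 1.404 without OVX replicate 1. Without OVX replicate 1 the adjusted p was 0.0182 for Saa3, 0.138 for Cyba and 0.0117 for Pglyrp1.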
